A study of Mus musculus with 92 samples.

Results

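A set of 10 genes that write, read or remove repressive chromatin marks were followed: the Polycomb genes Ezh1, Ezh2, Eed, Suz12 and Jarid2, the DNA methyltransferase genes Dnmt1, Dnmt3a and Dnmt3b, and the DNA demethylation genes Tet2 and Tet3. They were found by their gene names in the count tables, as 10 of the 54532 genes listed. RNA was sequenced in 92 mouse libraries in 21 groups: intestinal crypts and villi, adult small intestinal organoids and fetal intestinal spheroids. The study deleted Eif4g2, a translation initiation factor, with a tamoxifen-inducible Cre (CreER), and treated organoids with A-485, a compound that blocks histone acetylation by p300 and CBP. All 10 genes passed the filter on low counts in each comparison below.

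Rosa26(CreER) mice, in which the Rosa26 locus drives CreER broadly, were Eif4g2(flox/flox), called homozygous here, or Eif4g2(flox/+), called heterozygous. They were sampled on day 9 after the start of tamoxifen, with 4 homozygous and 5 heterozygous crypt libraries and 5 and 5 villus libraries. Vil1(CreER) mice, in which the Vil1 promoter drives CreER in the gut epithelium, had the same Eif4g2 genotypes and were sampled at 3 months, with 3 and 4 crypt libraries and 6 and 4 villus libraries. The protocol for the latter gives tamoxifen at 100 mg/kg daily for 4 days. Both genotypes carried CreER, so the heterozygous controls had lost 1 copy of the gene in recombined cells.

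A first organoid set held 3 flox/flox Rosa26(CreER) lines, each with 4-hydroxytamoxifen (4-OHT, 0.5 µM for 24 h) or the solvent DMSO. A second set, all given 4-OHT, held 4 lines each of flox/flox, flox/+ and Eif4g2(+/+) with CreER alone. Fetal spheroids were 6 flox/flox and 5 flox/+ lines, each with DMSO and with 4-OHT. These cultures carried Rosa26(CreER), grew in EGF, Noggin and Rspondin (ENR) medium and were collected on day 6. The A-485 organoids were 4 Rosa26(CreER) lines without 4-OHT, 1 of them Eif4g2(+/+) and 3 flox/flox, each with DMSO or A-485 at 3, 5 and 10 µM for 4 days. A single flox/flox line was in both the first organoid set and the A-485 set. Spheroid lines shared label numbers, which may mark litters, within and between genotypes. Some of these numbers occurred in a single genotype only, so label number and genotype partly overlapped. No separate animals or cultures are named beyond the line and animal labels, so p-values describe the spread between these libraries.

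Polycomb repressive complex 2 (PRC2) methylates lysine 27 of histone H3. Ezh2 and Ezh1 are its alternative catalytic subunits, Eed binds the finished mark and stimulates the enzyme, Suz12 holds the core together, and Jarid2 is an accessory subunit that helps recruit it. Dnmt1 copies cytosine methylation onto newly replicated DNA, Dnmt3a and Dnmt3b add it to unmethylated sites, and Tet2 and Tet3 oxidise it. In the gut, Ezh2 and Dnmt1 are known for high expression in dividing crypt cells and low expression in mature villus cells, whereas Ezh1 is also expressed in non-dividing cells.

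Stretches of the promoters of 3 members are shown because they hold the E2F-type motif spellings TTTGGCGC or TTTCCCGC, searched on both strands, in genes whose RNA was compared between dividing and non-dividing tissue. The windows run from 250 bases before to 50 bases after each annotated start (RefSeq, GRCm38.p6), and 10 of 10 members matched with 15 windows. Sequences read 5′ to 3′ on the gene's strand, with the motif in capitals. They lie at chr6:47595010-47595037 on the minus strand for Ezh2, chr9:20952574-20952600 on the minus strand for Dnmt1, and chr11:79992856-79992954 on the plus strand for Suz12.
Ezh2: ggttgctgcgTTTGGCGCtcggtccggt
Dnmt1: cggggcagcgTTTGGCGCgggctgtgc
Suz12: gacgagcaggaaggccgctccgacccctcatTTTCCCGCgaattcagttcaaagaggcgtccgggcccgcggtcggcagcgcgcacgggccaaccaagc

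The motif began 3 bases after the Ezh2 start, 33 bases after 1 of the annotated Dnmt1 starts and 219 bases before the Suz12 start. TTTGGCGC was in 169 of all 32851 windows of that length (0.514%) and TTTCCCGC in 351 (1.07%). The 2 spellings did not overlap in these windows, and no window of another member held either. Such a match is a string of letters, and binding was not measured. The matching windows of Ezh2, Dnmt1 and Suz12 held 31, 33 and 41 CG pairs, beside a median of 7 over all windows. How often windows as rich in CG hold these motifs was not computed.

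In the GRCm38 annotation, Ezh1 is at chr11:101191115-101226463 and Ezh2 at chr6:47530139-47595341, both on the minus strand. Eed is at chr7:89954654-89980983 (minus), Suz12 at chr11:79993106-80034123 (plus) and Jarid2 at chr13:44729474-44921643 (plus). Dnmt1 is at chr9:20907209-20959888 (minus), Dnmt3a at chr12:3806007-3914443 (plus) and Dnmt3b at chr2:153649450-153687730 (plus). Tet2 is at chr3:133463679-133545139 and Tet3 at chr6:83362373-83459084, both on the minus strand. Counts are per gene over its exons. Exons of Ezh2, Eed, Suz12, Dnmt3a and Tet2 share bases with a gene on the opposite strand (Gm26625, E230029C05Rik, Gm26563, Dnmt3aos and Gm42567). The library kit marked strand, but whether the counting used it is not given, so these 5 counts are uncertain to that extent.

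Library totals ran from 8652040 to 37611126 counts. Eif4g2 RNA was lower in homozygous than heterozygous libraries in all 4 tissues, with log2 fold changes from -2.70 (Rosa26 villi) to -0.99 (Vil1 crypts), and lower with 4-OHT in flox/flox organoids (-2.37) and spheroids (-2.82). In A-485 its log2 fold changes were 0.03 to 0.20 and none was called. Crypt and villus labels fitted their markers: the stem cell gene Lgr5 averaged 60.4 CPM (the reads of a gene scaled to a common library size) in heterozygous Rosa26 crypts and 0.81 in villi, and the enterocyte gene Alpi 190 and 9500. Mitochondrial genes took 1.81% to 40.3% of a library, and more in homozygous than heterozygous crypts (18.9% ± 5.02 against 8.55% ± 2.50 with Rosa26, 35.7% ± 4.98 against 23.3% ± 6.07 with Vil1, mean ± SD). All heterozygous Rosa26 libraries expressed the Y-linked gene Ddx3y while most homozygous ones had 0 reads, so sex overlapped with genotype there. A group of 6 spheroid libraries stood apart with summed crypt stem markers of 3417 to 12009 CPM, against 860 to 1881 in the others: flox/flox DMSO 1 and 3, flox/+ DMSO 4 and 5, and flox/+ 4-OHT 4 and 5.

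Across the 21 group means, Dnmt1 and Dnmt3b had the widest ranges and Tet3 the narrowest. Levels are CPM after edgeR's TMM scaling of all 92 libraries together, which come from 4 tables, so an order across tables is a description. Dnmt1 spanned 23.5-fold, from 265.9 CPM in the second-set organoids with CreER alone to 11.3 in heterozygous Rosa26 villi. Dnmt3b spanned 15-fold, with its highest mean (12.5 CPM) in the second-set flox/flox organoids. Ezh2 spanned 8.90-fold, from 104.9 CPM in the second-set CreER-only organoids to 11.8 in heterozygous Rosa26 villi. The other catalytic subunit, Ezh1, spanned 3.05-fold and had its highest mean, 85.5 CPM, in heterozygous Vil1 villi, where Ezh2 was low. With library totals in place of TMM, Ezh1 averaged 62.5 CPM there and 63.6 in heterozygous Vil1 crypts. Tet3 spanned only 1.82-fold, from 84.2 CPM in flox/+ DMSO spheroids to 153.4 in the first-set organoids with 4-OHT.

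The remaining members lay between. Tet2 spanned 4.38-fold with its highest mean of 40.2 CPM in heterozygous Vil1 villi, Eed 3.82-fold with 72.8 CPM in homozygous Vil1 crypts, and Suz12 3.24-fold with 237.2 CPM in second-set flox/flox organoids. Dnmt3a spanned 3.06-fold and was highest in flox/+ DMSO spheroids (112 CPM), and Jarid2 spanned 2.70-fold with its highest mean of 72.3 CPM in homozygous Rosa26 villi. That place of Jarid2 depended on the scaling. With library totals its mean was 42.9 CPM there and 84.4 in the second-set CreER-only organoids. Each gene's 21 groups give 20 neighbouring pairs in order of level. No neighbours had separate library ranges for Jarid2, Dnmt1, Dnmt3a and Tet2. Ezh2 had separate neighbours at the bottom of its order, where A-485 at 10 µM, homozygous Rosa26 villi and heterozygous Rosa26 villi followed each other without overlap.

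Divided by gene length, the catalytic subunits changed places between tissues. In heterozygous Rosa26 villi Ezh1 stood at 9.27 ± 0.81 CPM per kb and Ezh2 at 1.76 ± 0.21 (mean ± SD, n = 5). In heterozygous Rosa26 crypts Ezh1 stood at 5.67 ± 0.43 and Ezh2 at 7.34 ± 0.76 CPM per kb. By group means, Ezh1 was above Ezh2 per kb in the 4 villus groups and in A-485 at 5 and 10 µM, and below it in the other groups. Library ranges of Ezh1 and Ezh2 overlapped in homozygous Rosa26 crypts, first-set organoids with 4-OHT, and flox/flox spheroids with DMSO and with 4-OHT. Among methyltransferases, mean Dnmt3a was above mean Dnmt1 per kb in both heterozygous villus groups and in homozygous Rosa26 villi. Library ranges were separate only in heterozygous Rosa26 villi. They overlapped in homozygous Rosa26 villi (2.31 ± 0.48 against 2.25 ± 0.19) and heterozygous Vil1 villi (2.53 to 3.37 against 2.39 to 2.97). This order also rests on the gene lengths used, 16642 bases for Dnmt3a and 7377 for Dnmt1. Dnmt3b was the lowest of the 3 everywhere, at 0.163 to 2.44 CPM per kb. The plot of levels per kb shows both sets of genes.

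**Figure D1:**
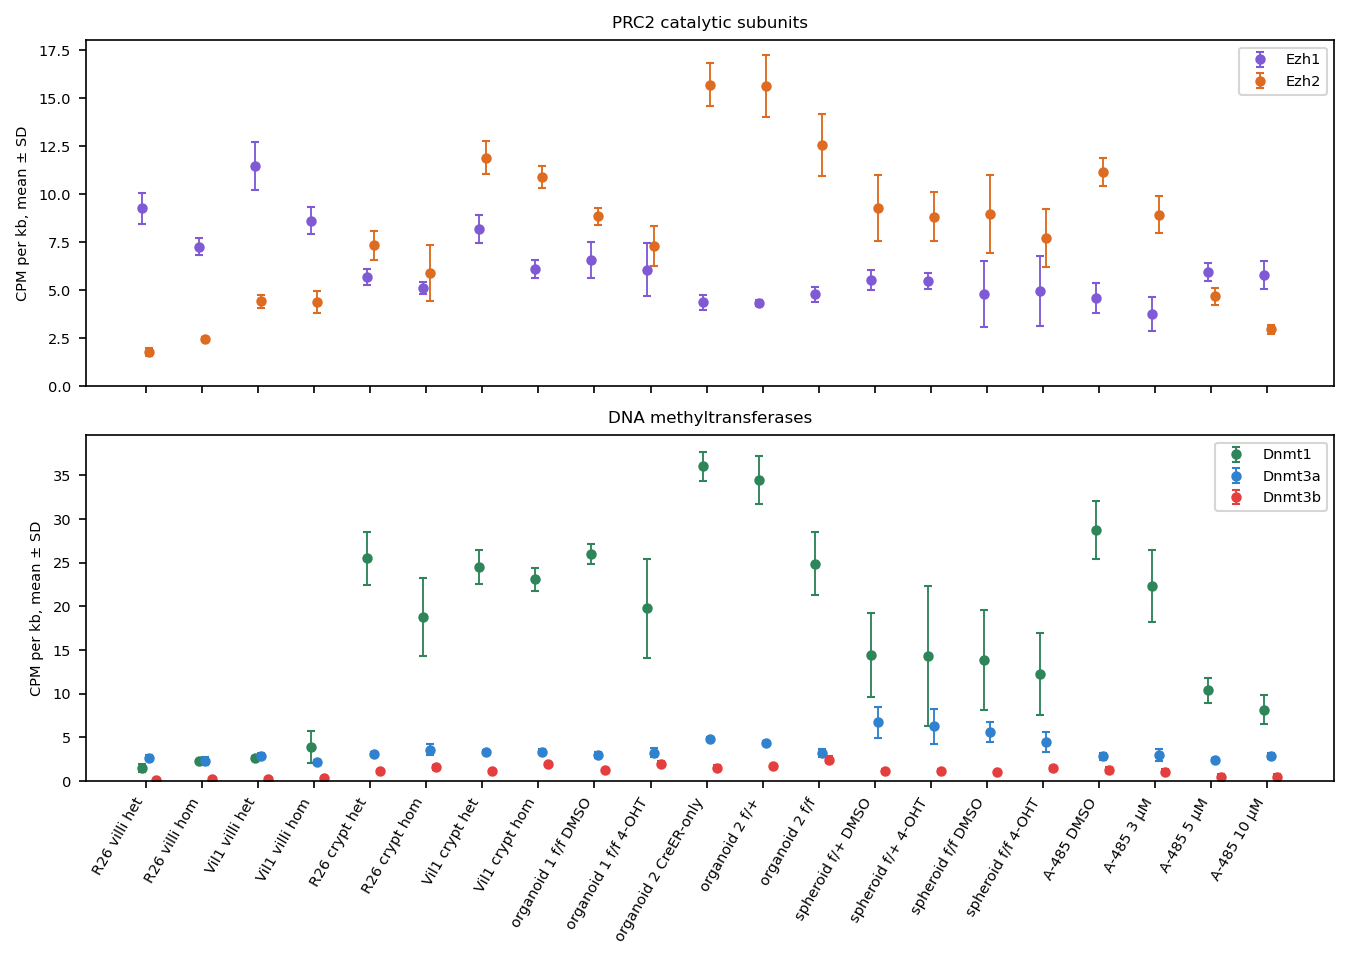
Levels per gene length (CPM per kb, mean ± SD over libraries) of Ezh1 and Ezh2, and of Dnmt1, Dnmt3a and Dnmt3b, in the 21 groups. Ezh1 lies above Ezh2 in the 4 villus groups and in A-485 at 5 and 10 µM, and Dnmt1 per kb falls to 1.53 in heterozygous Rosa26 villi from 36.0 in the second-set organoids with CreER alone.

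The genes with the most similar profile were found as those with the highest Pearson correlation of log2 group means over the 21 groups, among 9080 genes. The points share tissue, batch and depth, so these values are descriptions. The closest to Dnmt1 were Asf1b and Racgap1 (r = 0.989 for both), and the closest to Dnmt3b were Mybl2 (r = 0.983) and Prpf31 (r = 0.970). Ezh2 was closest to Nfx1 (r = 0.981) and Nasp (r = 0.976), Eed to Xpo1 (r = 0.984) and Psip1 (r = 0.971), and Suz12 to Hspa4 (r = 0.945). Ezh1 was closest to Stx5a (r = 0.901), Jarid2 to P2ry1 (r = 0.893), Dnmt3a to Chst11 (r = 0.893), Tet2 to Nktr (r = 0.946) and Tet3 to Ppp1r12c (r = 0.917). Among members, Ezh2 and Eed had r = 0.921 and Ezh2 and Dnmt1 r = 0.893, while Ezh1 had r = -0.721 with Dnmt1 and -0.779 with Suz12.

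Crypts were compared with villi of the same heterozygous mice to place the 10 genes along the crypt-villus axis. Dnmt1, Dnmt3b, Ezh2, Eed and Suz12 were higher in crypts with both drivers, and Ezh1 and Tet2 were lower. A gene is called at an edgeR Benjamini-Hochberg adjusted p under 0.05. By that rule 7 of 10 members were called in Rosa26 mice and 7 of 10 in Vil1 mice, while 77.1% and 67.9% of all tested genes were called, so the share is near the background. The median log2 difference of the 10 genes was 0.26 with Rosa26 and 0.39 with Vil1, beside 0.09 and 0.08 for all tested genes. In bulk tissue, a smaller share of a cell type and less RNA per cell cannot be told apart.

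Dnmt1 in Rosa26 crypts was at 187.5, 217.0, 175.1, 159.4 and 201.4 CPM, against 11.3, 8.70, 16.8, 10.2 and 9.49 in villi. The lowest crypt library was far above the highest villus library, a 15.98-fold difference (log2 4.00 ± 0.19, edgeR adjusted p = 4.07e-09). In Vil1 mice Dnmt1 was at 198.4, 175.7, 165.1 and 184.0 CPM in crypts and 18.1, 20.3, 21.9 and 17.6 in villi. This was 8.71-fold (log2 3.12 ± 0.11, edgeR adjusted p = 6.57e-08), again without overlap. Dnmt3b, 1 of the enzymes that start new methylation, was at 4.83 to 6.80 CPM in Rosa26 crypts and 0.165 to 1.23 in villi, where it rested on few reads. Its log2 difference was 2.70 ± 0.41 (edgeR adjusted p = 7.12e-05) with Rosa26 and 2.08 ± 0.24 (2.64e-05) with Vil1. Dnmt3a gave log2 differences of only 0.17 ± 0.10 and 0.12 ± 0.10 and was not called with either driver (edgeR adjusted p = 0.122 and 0.331).

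Ezh2 in Rosa26 crypts was at 41.1, 50.1, 50.7, 48.1 and 55.0 CPM, against 14.01, 11.8, 10.7, 11.996 and 10.4 in villi. No library overlapped, and the difference was 3.97-fold (log2 1.99 ± 0.10, edgeR adjusted p = 7.37e-09). In Vil1 mice it was 2.53-fold (log2 1.34 ± 0.09, edgeR adjusted p = 7.98e-07). Its partners followed at smaller size: Eed by log2 0.94 ± 0.09 and 0.66 ± 0.10, and Suz12 by 0.35 ± 0.07 and 1.01 ± 0.10, in Rosa26 and Vil1 mice.

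Ezh1 went the other way, at 38.0, 40.6, 41.6, 45.3 and 45.5 CPM in Rosa26 crypts and 70.6, 76.1, 61.3, 64.4 and 72.3 in villi. The groups did not overlap, and crypts were lower by log2 -0.77 ± 0.08 (edgeR adjusted p = 1.66e-06), as in Vil1 mice (-0.58 ± 0.10, 0.000561). Tet2 was lower in crypts by -0.43 ± 0.15 (edgeR adjusted p = 0.0229, ranges overlapping) and -0.54 ± 0.11 (0.00138). The direction of Ezh1 and Tet2 depended on the scaling. With library totals in place of TMM, Ezh1 was at log2 0.19 and 0.03 and Tet2 at 0.53 and 0.07, and the median of all genes moved from 0.09 to 1.06 in Rosa26 and from 0.08 to 0.69 in Vil1 mice. Relative to that shifted median Ezh1 and Tet2 still lay below the median gene. The Rosa26 call of Tet2 was also lost in 5 of 10 fits that left out 1 library (crypt 2 or 5, villus 1, 3 or 4), with edgeR adjusted p up to 0.114. Jarid2 and Tet3 were not called with either driver. With library totals Tet3 was called higher in crypts, by 0.80 with Rosa26 (edgeR adjusted p = 4.51e-06) and 0.60 with Vil1 (0.000733). Jarid2 was then called higher with Rosa26 (0.91, 3.87e-06). These values too lay below the shifted median of all genes. The plot of tissue levels shows the gap for Dnmt1 and Ezh2 and the reverse order for Ezh1.

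**Figure D2:**
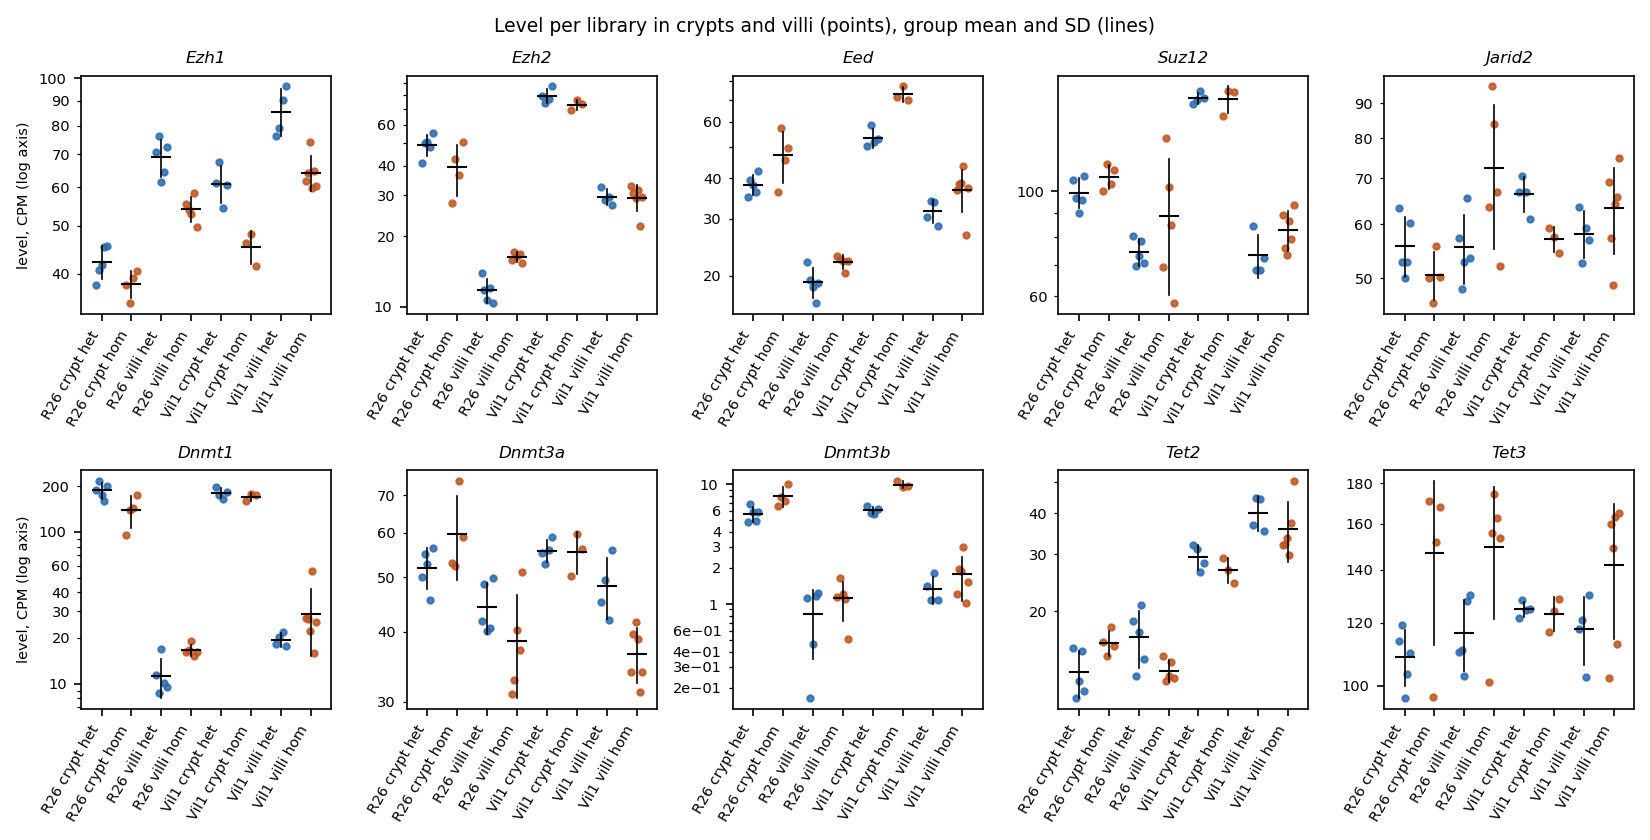
CPM of the 10 genes in each crypt and villus library (log axis), with heterozygous libraries in blue and homozygous ones in orange, for Rosa26 and Vil1 mice. Dnmt1 is between 159 and 217 CPM in heterozygous Rosa26 crypts and between 8.70 and 16.8 in villi, while Ezh1 is higher in villi on this TMM scale but not with library totals.

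The 16 proliferation genes counted beside the members (Mki67, Top2a, Mcm genes and the like) were called higher in crypts, 16 of 16 with both drivers, with median log2 differences of 4.85 and 3.76. The part of cell division in the members' differences was not tested. Of 7 other DNA methylation genes tested, 6 were higher in crypts with each driver and 0 and 1 lower, beside the 77.1% and 67.9% of all genes called in either direction. Their median log2 difference was 2.48 with Rosa26 and 1.43 with Vil1, beside 0.09 and 0.08 for all genes, and they include Uhrf1, which brings Dnmt1 to replicating DNA (log2 5.61 ± 0.31 and 4.58 ± 0.31), and the chromatin remodeller Hells (5.04 ± 0.25 and 3.98 ± 0.16). Of 8 PRC2 accessory genes, 5 were higher and 1 lower in Rosa26 crypts, and 4 higher and 1 lower of 7 tested in Vil1 crypts. Phf19, which directs PRC2 to active chromatin, was higher by log2 2.96 ± 0.29 and 2.39 ± 0.36. Of 23 PRC1 genes, which form the companion complex that ubiquitinates histone H2A, 15 were higher and 7 lower with Rosa26, and 11 and 8 with Vil1. Their median was 0.56 and 0.46, beside 0.09 and 0.08 for all genes.

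In Rosa26 crypts on day 9, homozygous deletion of Eif4g2 gave no member call, with 20.2% of all genes called (0 of 10 members, edgeR; 5715 genes had an unadjusted p under 0.05). Member log2 fold changes ran from -0.47 to 0.46, with a median of 0.13 beside 0.044 for all genes. Dnmt1 was the lowest, at 95.3, 139.0, 144.5 and 174.9 CPM in homozygous and 159.4 to 217.0 in heterozygous crypts (-0.47 ± 0.16, edgeR adjusted p = 0.0611). Dnmt3b was at 6.62, 7.86, 7.22 and 10.1 CPM against 4.83 to 6.80 (0.46 ± 0.17, adjusted p = 0.0840). Both pairs of ranges overlapped. With a covariate for Y-linked RNA, Ezh2 (-0.81, edgeR adjusted p = 0.0244) and Dnmt1 (-0.97, 0.0129) were called lower. With all 4 Rosa26 tissue groups in 1 fit Dnmt1 was called lower (-0.52, 0.0418). Of the proliferation genes 6 of 16 were lower and none higher, and of 10 crypt stem markers 7 were lower. The share these changes have in the Dnmt1 values was not tested. Summed immune markers were at 109, 1220 and 2466 CPM (lowest, median, highest) in homozygous and 154, 229 and 538 in heterozygous crypts, and their part was not tested either.

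In Rosa26 villi the homozygous libraries had less Ezh1, less Tet2 and more Ezh2 RNA. The count of 3 of 10 members called stands against 33.2% of all genes, so the count is near the background, and the median log2 fold change of the 10 was 0.23 beside -0.005 for all genes. Ezh1 was at 55.5, 53.9, 53.0, 58.4 and 49.7 CPM in homozygous villi, all below the heterozygous 61.3 to 76.1 (-0.42 ± 0.08, edgeR adjusted p = 0.00286). Ezh2 was at 15.8, 17.2, 16.5, 16.8 and 15.4 CPM, all above the heterozygous 10.4 to 14.01 (0.40 ± 0.10, edgeR adjusted p = 0.0118). Per kb, Ezh2 and Ezh1 stood at 2.45 and 7.27 CPM in homozygous villi and at 1.76 and 9.27 in heterozygous ones. Tet2 overlapped between genotypes (-0.42 ± 0.15, edgeR adjusted p = 0.0456), and its call was lost in 8 of 10 fits without 1 library. Adding the Y-linked covariate left Ezh2 at 0.41 with an edgeR adjusted p of 0.0573, and Tet2 at 0.185. Dnmt1 was at 15.3 to 19.0 CPM in homozygous and 8.70 to 16.8 in heterozygous villi (0.48 ± 0.18, edgeR adjusted p = 0.0535). Markers of other cells were lower in homozygous villi too: 4 of 10 immune markers, such as Cd3g (log2 -1.57 ± 0.26), 4 of 5 tuft, 5 of 6 enteroendocrine and 3 of 7 goblet markers tested, with none higher. Summed immune markers were at 116, 186 and 304 CPM in homozygous and 159, 324 and 530 in heterozygous villi (lowest, median, highest), and their part in the members' values was not tested.

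The genotype difference of Ezh2 and Dnmt1 was not the same in crypts and villi of Rosa26 mice. The interaction, villi minus crypts, was log2 0.84 ± 0.19 for Ezh2 (edgeR adjusted p = 0.0119) and 1.06 ± 0.24 for Dnmt1 (0.0121), beside 11.5% of all genes called. In this term Dnmt1 and Ezh2 were the only called members. Pairing crypt and villus of the same animal left Ezh2 at 0.86 with edgeR adjusted p = 0.0502. Among proliferation genes 5 of 16 had a called interaction in the same direction (median 1.14), and their part was not tested.

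In Vil1 crypts at 3 months, homozygous libraries had more Dnmt3b and Eed RNA and less Ezh1 and Jarid2. The 4 of 10 members called compare with 29.3% of all genes, and the members' median was -0.080 beside 0.013 for all genes. Dnmt3b was at 10.6, 9.47 and 9.65 CPM in homozygous and 6.57, 5.78, 5.64 and 6.21 in heterozygous crypts. The groups did not overlap (0.68 ± 0.14, edgeR adjusted p = 0.00672). Eed, the subunit that reads the mark, was at 71.3, 77.1 and 69.9 CPM against 50.3, 58.5, 51.8 and 52.9 (0.42 ± 0.07, edgeR adjusted p = 0.00319). With library totals both values missed the threshold (0.53, edgeR adjusted p = 0.0655, and 0.28, 0.156), and fitting all 4 Vil1 tissue groups together left Dnmt3b at an adjusted p of 0.101.

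Ezh1 in Vil1 crypts was at 46.2, 48.2 and 41.5 CPM in homozygous and 61.1, 67.5, 54.4 and 60.6 in heterozygous libraries (-0.45 ± 0.09, edgeR adjusted p = 0.00540). Every homozygous library was below every heterozygous one. Jarid2 was lower by -0.25 ± 0.07 (edgeR adjusted p = 0.0353) without overlap, and its call was lost in 5 of 7 fits without 1 library (heterozygous 1 or 3, or any homozygous one), with adjusted p up to 0.181. Ezh2 (-0.16) and Dnmt1 (-0.11) were not called. Proliferation genes were 7 lower and 1 higher of 16, with a median of -0.24. Summed immune markers were at 537, 740 and 783 CPM (lowest, median, highest) in homozygous and 84, 308 and 818 in heterozygous crypts. Of 10 immune markers 2 were called higher in homozygous crypts, Csf1r (log2 1.89 ± 0.29, edgeR adjusted p = 0.00239) and Lyz2 (1.76 ± 0.47, 0.0329), and of 8 stromal markers tested 1 was. Crypt stem markers were 7 lower of 10, Paneth markers 8 of 8 and tuft markers 5 of 5. The part of these markers in the members' values was not tested.

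In Vil1 villi, Ezh1 and Dnmt3a were lower in homozygous libraries and no member was called higher. That is 2 of 10, with 42.5% of all genes called, and a members' median of 0.11 beside 0.051. Ezh1 ran from 59.8 over a median of 63.0 to 74.2 CPM in the 6 homozygous libraries and was at 76.3, 79.2, 90.2 and 96.2 in the heterozygous ones. The fold change was -0.46 ± 0.11 (edgeR adjusted p = 0.00503). Dnmt3a ran from 31.3 to 41.6 CPM against 45.3, 49.5, 42.0 and 56.0 (-0.44 ± 0.12, edgeR adjusted p = 0.0102). Neither pair of ranges overlapped. With library totals Ezh1 was at -0.30 (edgeR adjusted p = 0.112) and Dnmt3a at -0.27 (0.217). In 1 homozygous library Dnmt1 reached 55.0 CPM, beside 15.9 to 27.1 in the other 5. Summed immune markers were lower in homozygous (55.8 to 230 CPM) than heterozygous villi (294 to 494). For the difference of genotype effects between Vil1 villi and crypts no member was called (15.5% of genes). With crypt and villus paired by animal, Dnmt1 was called there (0.90, edgeR adjusted p = 0.0409).

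Ezh1 was thus called lower in homozygous libraries in 3 of the 4 tissue comparisons, by -0.42 to -0.46, and stood at -0.17 ± 0.07 in Rosa26 crypts (edgeR adjusted p = 0.129). Mice differ between drivers in time after tamoxifen and in the cells deleted, and the drivers were not tested against each other. The grid of fold changes shows these values beside the culture comparisons.

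**Figure D3:**
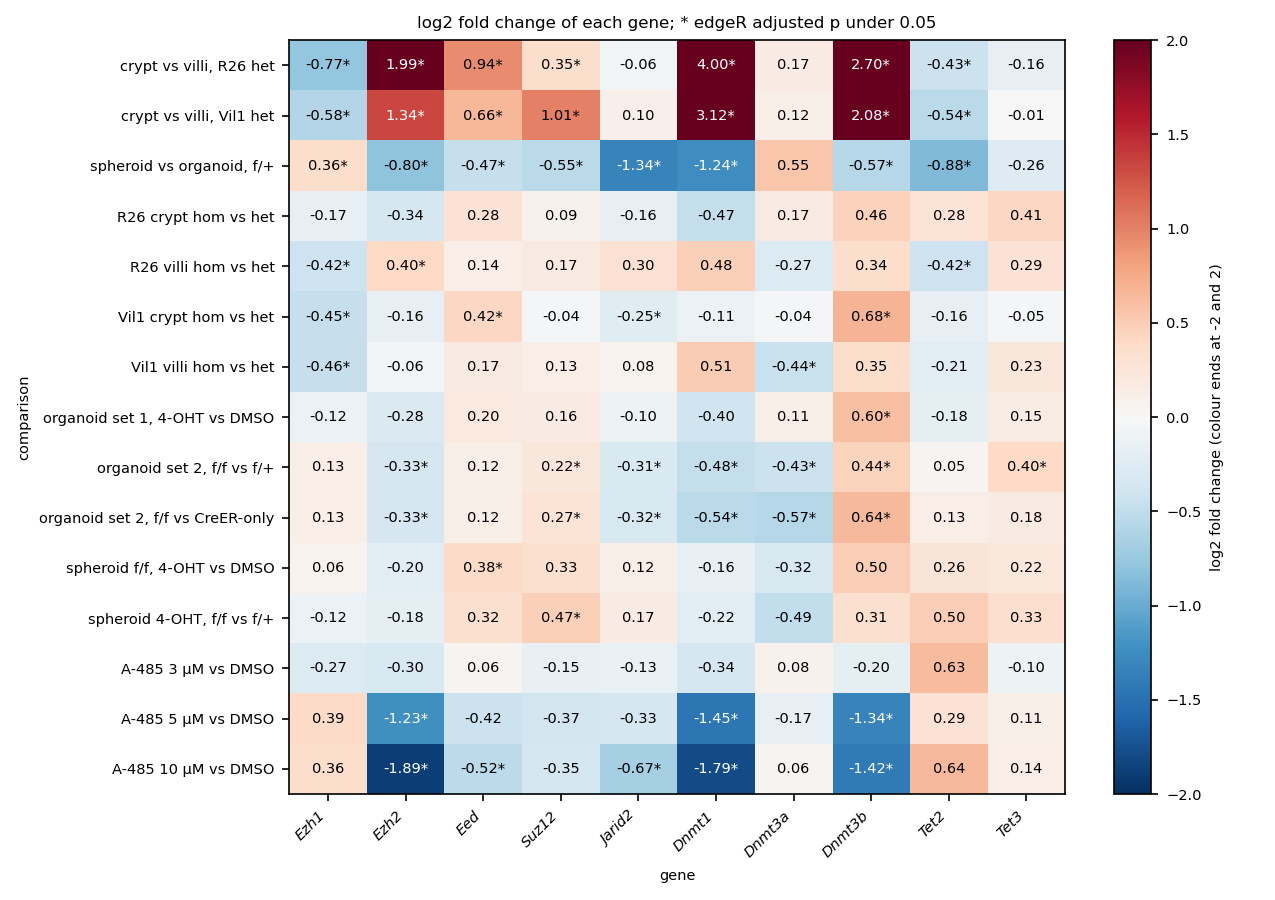
Log2 fold changes of the 10 genes (columns) in 15 comparisons (rows) as a colour grid, with an asterisk where the edgeR adjusted p is under 0.05. The highest value is that of Dnmt1 in Rosa26 crypts against villi (4.00) and the lowest that of Ezh2 at 10 µM A-485 (-1.89). In crypts against villi, Ezh1, Tet2 and Tet3 with both drivers and Jarid2 with Rosa26 change sign under library totals.

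In the first organoid set, 4-OHT in flox/flox lines gave a higher Dnmt3b and no other call. This is 1 of 10 members with 35.4% of all genes called, and medians of 0.007 for the members and 0.028 for all genes. Dnmt3b was at 10.1, 9.00 and 11.5 CPM with 4-OHT and at 6.39, 7.43 and 6.25 in the same 3 lines with DMSO. All 4-OHT values were above all DMSO values (0.60 ± 0.15, edgeR adjusted p = 0.0201). The call was lost without DMSO 1 (0.57, adjusted p = 0.0820), DMSO 3 (0.56, 0.0594) or 4-OHT 1 (0.62, 0.0571), and with the A-485 libraries in the fit (0.61, 0.431). Dnmt1 was at 120.7, 122.3 and 194.4 CPM with 4-OHT and 198.6, 194.8 and 182.0 with DMSO, so 1 line did not follow the other 2 (-0.40 ± 0.19, edgeR adjusted p = 0.1495). Ezh2 had the same pattern over lines, with 44.7, 44.7 and 56.9 CPM against 59.9, 61.6 and 55.8 (-0.28 ± 0.12, adjusted p = 0.109).

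In the second organoid set, flox/flox lines had less Dnmt1, Dnmt3a, Ezh2 and Jarid2 RNA and more Suz12 and Dnmt3b than both control genotypes, and more Tet3 than flox/+ lines. Against flox/+ 7 of 10 members were called and 46.8% of all genes. Against CreER-only organoids 6 of 10 were called and 45.3% of all genes. Both comparisons use the same 4 flox/flox libraries, and the members' medians were 0.088 and 0.12 beside -0.014 and -0.003 for all genes. Flox/+ against CreER-only gave 0 member calls (range -0.22 to 0.20) with 0.113% of genes called by edgeR and 1481 at an unadjusted p under 0.05.

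Dnmt1 was at 218.6, 189.2, 156.7 and 170.3 CPM in flox/flox, 225.1, 263.3, 257.3 and 270.8 in flox/+ and 247.7, 273.0, 269.5 and 273.5 in CreER-only organoids. Each flox/flox library lay below each control library, by -0.48 ± 0.09 (edgeR adjusted p = 0.000436) and -0.54 ± 0.09 (0.000173). Dnmt3a was at 63.9, 56.3, 45.9 and 51.2 CPM against 69.1 to 77.4 and 74.4 to 83.8. It fell without overlap too, by -0.43 ± 0.08 (edgeR adjusted p = 0.000722) and -0.57 ± 0.08 (6.93e-05). Dnmt3b, the other de novo enzyme, was at 13.6, 14.9, 11.2 and 10.1 CPM against 8.60 to 9.88 and 5.74 to 9.16. Thus the 2 de novo methyltransferases moved in opposite directions, Dnmt3b by 0.44 ± 0.15 (edgeR adjusted p = 0.0280) and 0.64 ± 0.15 (0.00323). Its call against flox/+ was lost without flox/flox 1 or 2 or flox/+ 1, 2 or 4 (0.34 to 0.44, edgeR adjusted p from 0.0556 to 0.0980).

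Among PRC2 genes in the second set, Ezh2 was at 95.8, 90.4, 75.4 and 74.2 CPM in flox/flox and 88.6, 106.3, 111.5 and 111.1 in flox/+, where 1 control library fell inside the flox/flox range. It was lower by -0.33 ± 0.09 against each control (edgeR adjusted p = 0.00925 and 0.00946). Suz12, the scaffold, went up: 248.9, 264.7, 211.9 and 223.2 CPM against 194.2 to 205.5 (0.22 ± 0.07, edgeR adjusted p = 0.0148) and 180.2 to 203.7 (0.27 ± 0.07, 0.00441). Without flox/flox 2 the first of these was 0.17 with an edgeR adjusted p of 0.0570. Jarid2 fell by -0.31 ± 0.09 (adjusted p = 0.0119) and -0.32 ± 0.09 (0.00931). Tet3 rose against flox/+ by 0.40 ± 0.10 (0.00364) and was at 0.18 ± 0.10 against CreER-only organoids (0.139).

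Other genes of these pathways moved in the same organoids. Phf19 averaged 3.36 CPM in flox/flox, 9.41 in flox/+ and 10.6 in CreER-only organoids (-1.50 ± 0.17 against flox/+), and 1.68 with 4-OHT against 5.67 with DMSO in the first set (-1.76 ± 0.24, edgeR adjusted p = 0.00194). Uhrf1 fell by -0.68 ± 0.10 and Cbx2, a PRC1 reader of the methyl mark, by -0.82 ± 0.14 against flox/+. Other called genes of the same lists rose against flox/+: Epop (PRC2 accessory, 0.87 ± 0.12), Uhrf2 (DNA methylation, 0.40 ± 0.10) and Bmi1 (PRC1, 0.67 ± 0.08). In the first set Epop (0.90 ± 0.10) and Uhrf2 (0.78 ± 0.12) were higher with 4-OHT too. Of the 23 PRC1 genes, 10 were higher and 5 lower in the second set against flox/+ (median 0.21), and 12 were higher and 2 lower in the first set (median 0.32). Of all genes, 46.8% and 35.4% were called in either direction there, with medians of -0.014 and 0.028. Proliferation genes were 0 higher and 11 lower of 16 against flox/+ (median -0.35), and 9 of 10 crypt stem markers were lower. Their part in the members' values was not tested. Summed immune markers were at most 2.06 CPM in the second set, with up to 8 of 10 markers at 0 in a library.

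Genes listed as Polycomb-silenced were mostly too low to test in organoids. Of these 18 genes 5 were tested in each organoid set, with 2 higher and 1 lower in both. The list was not silent in every tissue, with a median summed level of 909 CPM in homozygous and 726 in heterozygous Rosa26 villi. Cdkn2a, which encodes p16 and p19ARF and is a textbook PRC2 target, averaged 86.0 CPM with 4-OHT and 32.7 with DMSO in the first set (1.39 ± 0.25, edgeR adjusted p = 0.00534). In the second set it was at 8.06 ± 6.41 CPM in flox/flox, 1.66 ± 1.28 in flox/+ and 1.61 ± 0.68 in CreER-only organoids (mean ± SD). In tissue it was at 21.2 ± 8.46 CPM in homozygous and 0.025 ± 0.035 in heterozygous Vil1 crypts, and 22.4 ± 12.4 and 0.24 ± 0.18 in Vil1 villi. In Rosa26 tissue on day 9 no group mean of Cdkn2a was above 0.91 CPM. Cdkn2b, its neighbour on the same list, which encodes p15, was higher there in homozygous crypts (104 ± 42.2 against 42.8 ± 13.4 CPM, log2 1.27 ± 0.29, edgeR adjusted p = 0.0172) and villi (265 ± 54.5 against 139 ± 17.3 CPM, 0.86 ± 0.14, 0.00127). Other genes of the list were called lower, such as Pax6 in homozygous villi (-1.80 ± 0.59 with Rosa26, -1.93 ± 0.46 with Vil1). Lhx1 was lower in homozygous Vil1 crypts (-2.33 ± 0.48), the first organoid set (-2.70 ± 0.62) and the second against flox/+ (-1.81 ± 0.58). The list thus did not move in 1 direction. The 12 germline genes silenced by DNA methylation gave at most 2 tested genes in any comparison.

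In fetal spheroids, which model the fetal gut epithelium, 4-OHT in flox/flox lines gave more Eed RNA. It ran from 40.6 to 49.96 CPM with DMSO and from 47.8 to 68.7 with 4-OHT in the 6 lines (0.38 ± 0.11, edgeR adjusted p = 0.0246), with ranges that overlapped. It was the 1 member called of 10, with 19.1% of all genes called, and the members' median was 0.17 beside -0.023. Comparing each line with itself (a block by line) kept Eed (0.36, edgeR adjusted p = 0.0353) and added Suz12 (0.33, 0.0103) and Dnmt3a (-0.36, 0.0180). The unblocked Eed call was lost without DMSO 1 or 5 or 4-OHT 4 or 5 (0.32 to 0.35, edgeR adjusted p from 0.0526 to 0.0674). It was also lost with the 2 groups fitted alone (adjusted p = 0.0632) and with no filter on low counts (0.0886).

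In flox/+ spheroids 4-OHT gave 0 member calls (range -0.11 to 0.04) and 0 genes by edgeR, with 15 at an unadjusted p under 0.05. That fit did not block by line, although residuals of the same line correlated at 0.686 to 0.915. Eif4g2 itself was not called in it (-0.81 ± 0.24, edgeR adjusted p = 0.9999). The 0 calls therefore do not show that 4-OHT changed nothing in these lines. With 4-OHT, flox/flox exceeded flox/+ spheroids in Suz12 alone, 1 of 10 members with 10.5% of genes called. Suz12 was between 167.4 and 213.1 CPM in flox/flox and at 117.4, 137.6, 142.1, 139.0 and 142.5 in flox/+ (0.47 ± 0.13, edgeR adjusted p = 0.0219). The ranges were separate, and the call was lost without flox/+ 4-OHT 1 (0.43, adjusted p = 0.0582) or 2 (0.46, 0.0643). With DMSO the same genotypes gave 0 member calls and 0 genes by edgeR (1084 at an unadjusted p under 0.05, and 2 genes by DESeq2). The 4-OHT effect differed between genotypes for no member (1.62% of genes called), and with lines as a block for Suz12 (0.36, edgeR adjusted p = 0.0481). Crypt stem markers were 1 higher and 3 lower of 10 with 4-OHT in flox/flox lines. Leaving out the 6 libraries that stood apart kept Eed in flox/flox lines (0.40, edgeR adjusted p = 0.0482), added Suz12 there (0.45, 0.0201) and kept Suz12 between genotypes with 4-OHT (0.49, 0.0360).

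Fetal spheroids and adult organoids of the same genotype (flox/+) and treatment (4-OHT) differed in 8 of 10 members, with 47.9% of all genes called and medians of -0.56 for the members and -0.013 for all genes. Jarid2 was at 21.7, 18.3, 18.3, 29.4 and 49.4 CPM in spheroids and 70.1, 67.9, 71.3 and 73.7 in organoids. It was lower in spheroids by -1.34 ± 0.28 (edgeR adjusted p = 0.00383), with no overlap. Dnmt1 was at 63.4, 85.8, 68.0, 104.7 and 207.0 CPM against 225.1 to 270.8 (-1.24 ± 0.32, edgeR adjusted p = 0.0109), and the highest spheroid library is 1 of those with high crypt stem markers.

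Ezh2 was at 62.3, 57.4, 50.3, 53.1 and 71.9 CPM in those spheroids (-0.80 ± 0.13, edgeR adjusted p = 0.000816). Suz12 (-0.55 ± 0.08), Eed (-0.47 ± 0.13) and Dnmt3b (-0.57 ± 0.16) were lower as well, and Ezh1 was higher (0.36 ± 0.09, edgeR adjusted p = 0.0107). With library totals Ezh1 was at 0.24 (adjusted p = 0.0601). Tet2 was lower by -0.88 ± 0.31 (0.0391) with overlap, and its call was lost in 7 of 9 fits without 1 library (edgeR adjusted p from 0.0673 to 0.0859). Without spheroid 4-OHT 5, Dnmt1 was at -1.60, Jarid2 at -1.63 and Tet2 at -1.17 (adjusted p = 0.00123), and Dnmt3a was called higher (0.39, 0.0404). Without both flox/+ 4-OHT libraries that stood apart (4 and 5), all 10 members were called, with Dnmt1 at -1.74, Jarid2 at -1.79 and Tet2 at -1.43 (edgeR adjusted p = 3.58e-06), Tet3 at -0.55 (0.00601) and Dnmt3a at 0.44 (0.0196). Proliferation genes were 15 lower of 16 in spheroids (median -0.91). Of 5 stromal markers tested 3 were higher in spheroids, and their summed level was 13.9, 167.6, 20.3, 11.3 and 16.4 CPM in spheroids 1 to 5 against 7.06 to 10.1 in organoids. Goblet markers were 6 higher of 7. The part of these genes in the members' values was not tested. The plot of culture levels shows the organoid and spheroid groups side by side.

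**Figure D4:**
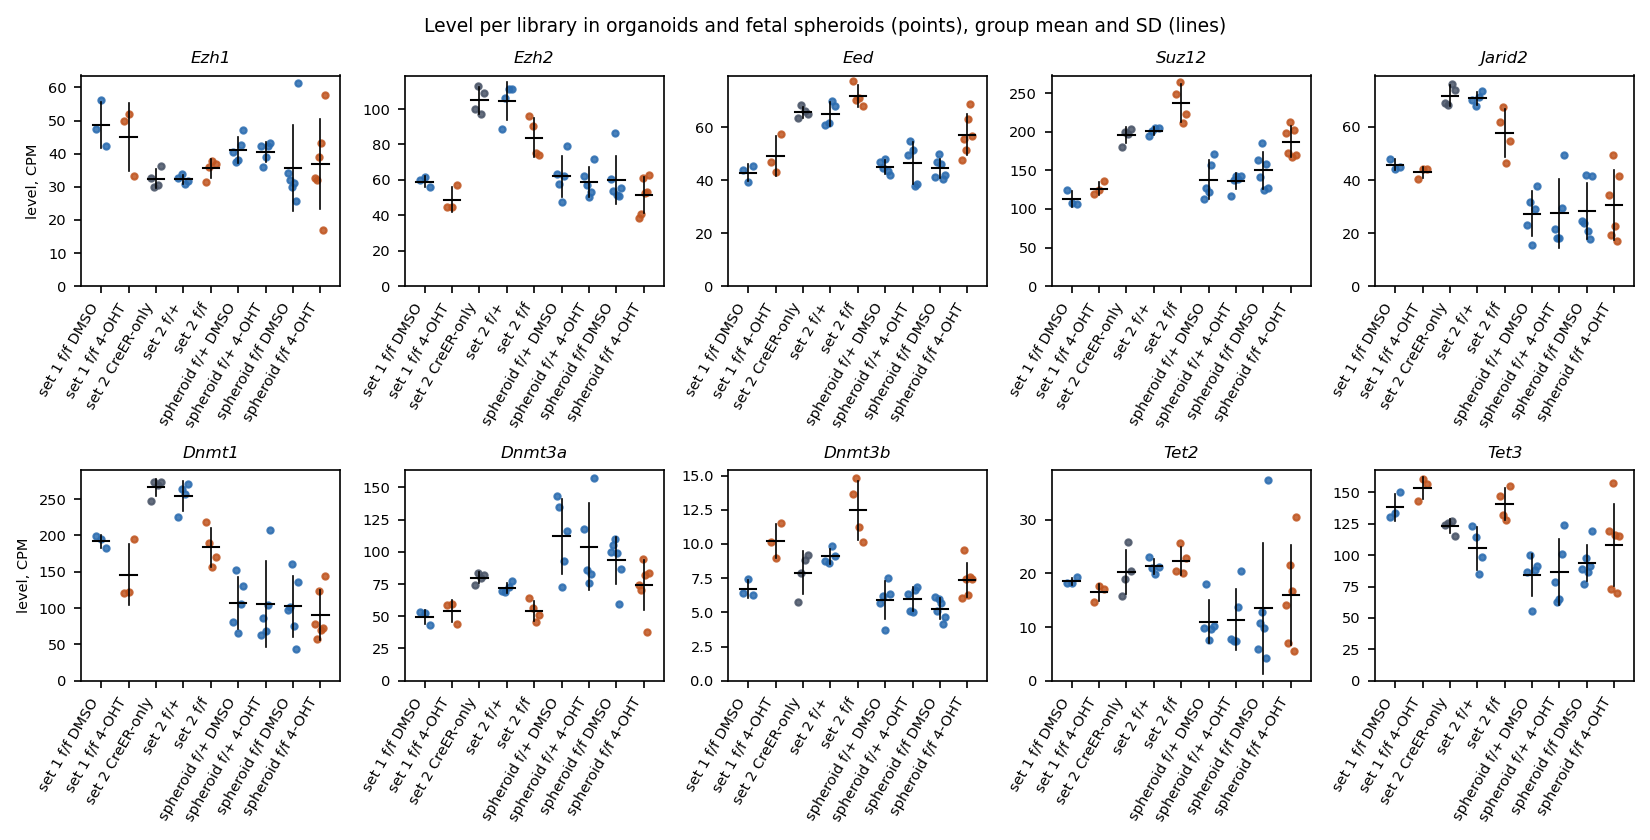
CPM of the 10 genes in each organoid and spheroid library by group, on axes from 0. Dnmt1 in the second organoid set is at 156.7 to 218.6 CPM in flox/flox and at 225.1 to 273.5 in the control lines, and Jarid2 is at or below 49.4 CPM in every spheroid group.

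With A-485 at 5 and 10 µM, Ezh2, Dnmt1 and Dnmt3b RNA fell, and Jarid2 and Eed RNA fell at 10 µM. At 3 µM no member was called (log2 range -0.34 to 0.63), with 19.2% of all genes called. At 5 µM 3 of 10 members were called and 49.6% of all genes, and at 10 µM 5 of 10 and 62% of all genes. All of these members were lower, and of all genes 25.1% were called lower at 5 µM and 32.6% at 10 µM. The members' medians were -0.14, -0.35 and -0.43 at 3, 5 and 10 µM, beside 0.004, -0.021 and -0.049 for all genes. The doses share the 4 DMSO libraries.

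Ezh2 was at 80.5, 70.3, 70.9 and 76.0 CPM with DMSO in lines 1 to 4, and at 63.5, 57.3, 51.8 and 66.0 with 3 µM. It was at 33.1, 31.1, 27.2 and 33.5 CPM with 5 µM, and at 19.0, 19.3, 22.1 and 18.6 with 10 µM. No treated group overlapped DMSO, that at 3 µM included, and every line was lower at each higher dose. The differences from DMSO were -0.30 ± 0.11 at 3 µM (edgeR adjusted p = 0.0749), -1.23 ± 0.12 at 5 µM (1.50e-07, 2.35-fold lower) and -1.89 ± 0.12 at 10 µM (3.70e-10, 3.70-fold lower).

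Dnmt1 was at 194.6, 192.8, 245.6 and 214.0 CPM with DMSO, 162.1, 158.1, 206.6 and 132.8 with 3 µM, 92.4, 72.1, 74.1 and 67.4 with 5 µM, and 45.9, 68.4, 72.1 and 54.5 with 10 µM. The groups at 5 and 10 µM were all below DMSO and overlapped each other. Dnmt1 fell by 1.45 ± 0.16 (edgeR adjusted p = 6.20e-07) at 5 µM and by 1.79 ± 0.16 (1.97e-08) at 10 µM on the log2 scale.

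Dnmt3b was at 6.65, 3.64, 7.60 and 7.93 CPM with DMSO, 0.470, 3.51, 3.08 and 3.10 with 5 µM, and 1.82, 1.48, 1.70 and 4.57 with 10 µM. Its values were low and spread widely, with -1.34 ± 0.50 (edgeR adjusted p = 0.0336) and -1.42 ± 0.50 (0.0206). The 5 µM call was lost without DMSO 1, 3 or 4 or 5 µM 1 (-0.98 to -1.33, adjusted p from 0.0581 to 0.0791). The 10 µM call was lost without 10 µM 1, 2 or 3 or DMSO 4 (-1.23 to -1.31, adjusted p from 0.0508 to 0.0636). Dnmt3a was not called at any dose (-0.17 to 0.08).

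Jarid2 at 10 µM was at 22.5, 23.6, 34.1 and 26.9 CPM, all below the DMSO values of 43.7, 39.5, 45.1 and 45.2 (-0.67 ± 0.18, edgeR adjusted p = 0.00370). Eed was lower at 10 µM by -0.52 ± 0.20 (edgeR adjusted p = 0.0292) with overlap, and its call was lost without any of 10 µM 1, 2 or 3 or DMSO 3 or 4 (-0.45 to -0.48, adjusted p from 0.0607 to 0.0842). With library totals it was at -0.39 (0.0981).

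Ezh1, the paralog of Ezh2, was not called lower at any dose. It was at 37.9, 40.1, 27.2 and 31.3 CPM with DMSO and at 34.7, 29.006, 29.6 and 18.8 with 3 µM (-0.27 ± 0.17, edgeR adjusted p = 0.301), the lowest mean of the 21 groups. It was at 39.4, 47.1, 44.2 and 46.1 with 5 µM, and 42.8, 40.1, 38.5 and 50.5 with 10 µM. With lines as a block it was called higher at 5 µM (0.43, edgeR adjusted p = 0.0188) and 10 µM (0.37, 0.0424), and without it the values were 0.39 ± 0.17 (0.0641) and 0.36 ± 0.17 (0.0749). The block also called Suz12 lower at both doses (-0.37, edgeR adjusted p = 0.00976, and -0.36, 0.0124) and Eed at 5 µM (-0.42, 0.0107). Per kb, Ezh2 went from 11.1 CPM with DMSO to 2.96 ± 0.24 at 10 µM while Ezh1 went from 4.59 to 5.78 ± 0.72, so Ezh1 became the higher of the 2. Tet2 and Tet3 were not called at any dose.

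**Figure D5:**
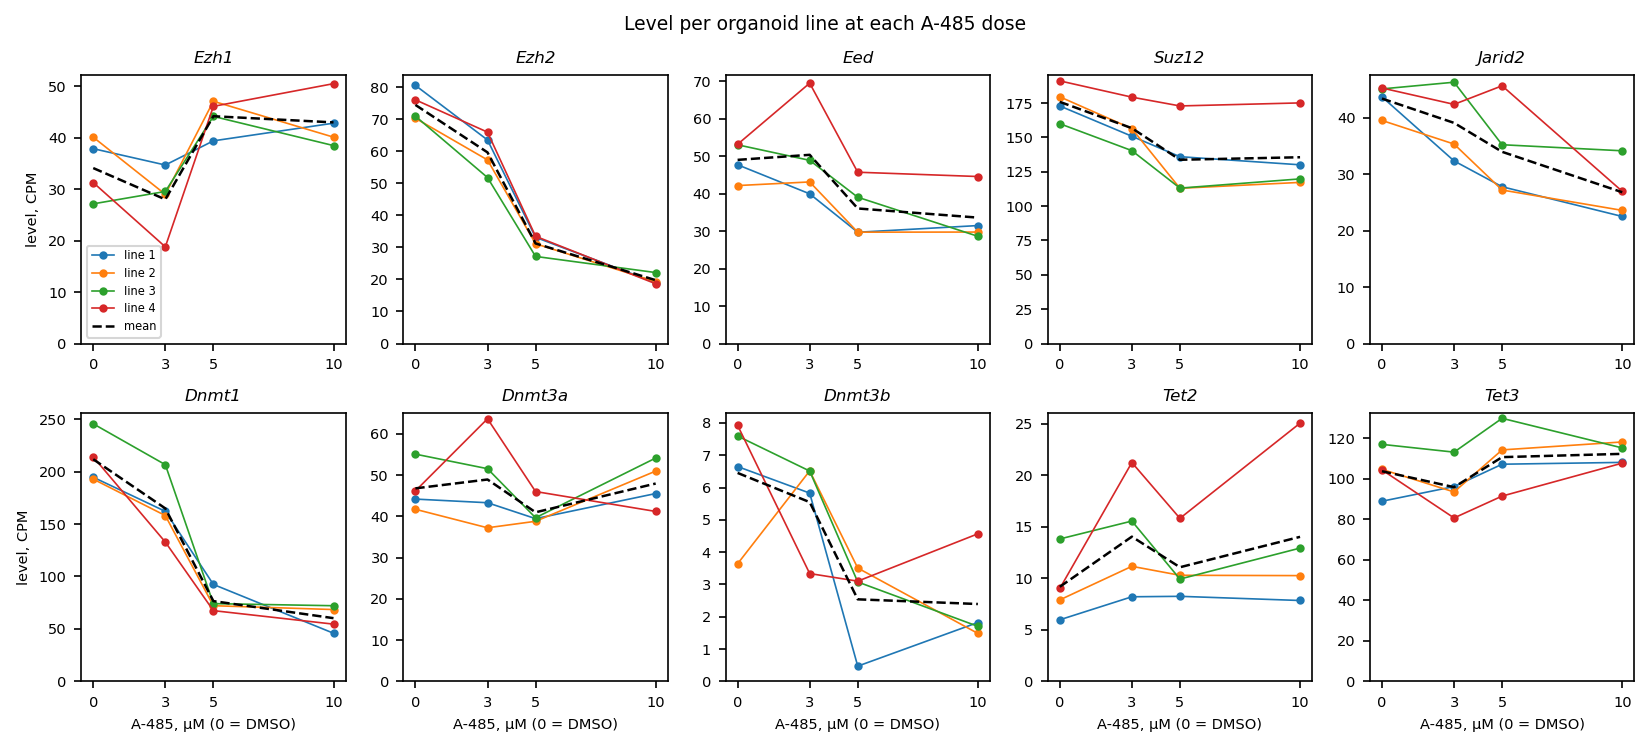
CPM of the 10 genes with DMSO and with A-485 at 3, 5 and 10 µM, 1 line per organoid line (line 1 is Eif4g2(+/+)) and a dashed line for the mean. Ezh2 goes from between 70.3 and 80.5 CPM with DMSO to between 18.6 and 22.1 at 10 µM in all 4 lines.

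The plot of levels by dose shows that the 4 lines moved together for Ezh2 and apart for Tet2, where line 4 was at 9.02 CPM with DMSO and 25.1 at 10 µM. All 16 proliferation genes were lower at 5 and at 10 µM (medians -1.64 and -2.04), and their summed level had medians of 2748, 2094, 845 and 650 CPM with DMSO, 3, 5 and 10 µM. The share of that in the falls of Ezh2 and Dnmt1 was not tested. Of 10 crypt stem markers, 8 and 9 were lower at the 2 higher doses.

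Related genes went both ways with A-485. Uhrf1 fell by 1.85 ± 0.16 and 2.53 ± 0.17 and Cbx2 by 1.89 ± 0.27 and 2.79 ± 0.28 at 5 and 10 µM on the log2 scale. Phf1, a PRC2 accessory subunit that binds trimethylated lysine 36 of histone H3, rose by 1.00 ± 0.26, 1.95 ± 0.26 and 2.60 ± 0.26 at 3, 5 and 10 µM. The methyl-CpG binding protein gene Zbtb4 rose by 1.37 ± 0.16, 2.23 ± 0.16 and 2.56 ± 0.17. Cdkn2a averaged 1.04 CPM with DMSO, 15.3 at 3 µM, 27.3 at 5 µM and 23.8 at 10 µM, and was called higher at each dose (log2 3.89 ± 0.32, 4.72 ± 0.32 and 4.52 ± 0.32). Of the same list, Hoxa13 was called higher at 5 µM (4.22 ± 1.47) and Tbx3 lower at 10 µM (-0.96 ± 0.25). At 3 µM no member was called, though every Ezh2 library (at most 66.0 CPM) was below every DMSO library (at least 70.3). A link between Cdkn2a and the members was not tested. At 10 µM, 5 of 8 tested DNA methylation genes beside the members were lower and 1 higher (median -0.96), and PRC1 genes were 9 higher and 6 lower of 23 (median 0.34), beside a median of -0.05 for all genes. Of all genes 62% were called at that dose and 32.6% were called lower, so the PRC1 count is near the background.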

How the data were processed

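Raw counts per gene were deposited by the authors in 4 tables with 1 column per library, and the values were whole numbers. Per the submitters' processing notes, reads were aligned with HISAT2 2.0.5 and the builds named are GRCm38 and mm10. The counting program, its annotation and any use of strand are not given in the sources used here. Organoids grown with added Wnt3a (WENR) were not analysed here. Library totals were 8652040 to 37611126 counts, and p-values and intervals cover the spread between libraries only.

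Comparisons were fitted in edgeR 4.0.16 under R 4.3.3 on the whole tables, with filterByExpr, TMM scaling, robust quasi-likelihood tests and Benjamini-Hochberg adjustment over all tested genes, called at 0.05. Tissue, first-set and spheroid-to-organoid comparisons used their 2 groups. The second set, spheroids and A-485 were each fitted with all their groups. Groups came from the labels. Levels are CPM after 1 TMM scaling of all 92 libraries, per kb where genes are compared. Named genes are the 10 members, for each list the 2 called genes with the largest absolute log2 fold change, and the 2 genes closest in profile among those averaging 3 or more on the log2 CPM scale. Which of them are printed was decided with their values known. Members and lists were chosen with earlier results of these data known. The fit was tested on simulated data.

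Replicates pair by line in the first organoid set, A-485 and within spheroid genotypes, and by animal between crypts and villi, as the labels state. Correlations of paired residuals ran from 0.434 to 0.576 in the first set, 0.417 to 0.816 in flox/flox and 0.686 to 0.915 in flox/+ spheroids, 0.0929 to 0.388 in A-485, and -0.0141 to 0.322 between crypts and villi. Each comparison was repeated with the Wald test of DESeq2 1.42.0, its size factors in edgeR, no filter, a replicate block, other sets of libraries, covariates for Y-linked RNA and animal number series, and each library left out. Library totals in place of TMM, and leaving out 6 spheroid libraries, were chosen after seeing the data.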

Additional observations from a re-analysis of the deposited data

Results flagged for a closer look

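In groups of 4 to 10 libraries, 15 of 180 combinations of gene and group had 1 library far from the rest by Dixon's ratio, where chance flags about 1 in 20. In fetal spheroids, flox/flox DMSO 6 was highest in Ezh1 (61.4 CPM, next 34.2) and in Tet2 (37.5, next 12.8), and flox/flox DMSO 3 was highest in Ezh2 (86.7, next 60.6). Among flox/+ spheroids, 4-OHT 5 was highest in Dnmt1 (207.0, next 104.7), 4-OHT 1 was lowest in Suz12 (117.4, next 137.6) and DMSO 2 was highest in Tet2 (18.002, next 10.1). In homozygous Vil1 villi, library 4 was highest in Dnmt1 (55.0 CPM, next 27.1), 3 in Ezh1 (74.2, next 64.8) and 6 in Tet2 (50.3, next 37.4), while 5 was lowest in Ezh2 (22.1, next 29.2). Tet3 in homozygous Rosa26 villi was lowest in library 1 (101.0 CPM, next 153.7). Dnmt1 in the CreER-only organoids was lowest in library 1 (247.7 CPM, next 269.5). With A-485, Dnmt3b was lowest in line 1 at 5 µM (0.470 CPM, next 3.08) and highest in line 4 at 10 µM (4.57, next 1.82), and Dnmt3a was highest in line 4 at 5 µM (46.0, next 39.7).

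The genotype difference in Rosa26 mice had opposite signs in crypts and villi for Ezh2 (-0.34 and 0.40) and Dnmt1 (-0.47 and 0.48), of which only Ezh2 in villi was called. Villi minus crypts was log2 0.84 for Ezh2 (edgeR adjusted p = 0.0119) and 1.06 for Dnmt1 (edgeR adjusted p = 0.0121), as a test of the difference itself. Paired by animal, Ezh2 was at 0.86 with edgeR adjusted p = 0.0502.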

How the results depend on the processing

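Of the 57 member calls, 33 held in every fit run and 45 in every fit that left out 1 library. Where a value below changed, the cause was not tested. With a replicate block by line or animal, members called were 6 for A-485 at 5 µM, 3 for 4-OHT in flox/flox spheroids, and 1 each for the interactions of Rosa26 mice, Vil1 mice and spheroids. Genes called were 4649 in flox/flox spheroids, 1 in flox/+ spheroids, 777 for the Rosa26 and 2758 for the spheroid interaction. Elsewhere the numbers do not pair the libraries (some same-numbered pair correlated under 0.1, down to -0.52). A replicate block by number gave 4 members in second-set flox/flox against flox/+, 30 genes in flox/+ against CreER-only, 141 genes and 0 members in flox/flox against flox/+ spheroids with 4-OHT, and -0.40 for Tet2 between DMSO spheroids.

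Fitting only the 2 groups gave 6 members for A-485 at 5 µM, 0 for flox/flox spheroids and 880 genes between 4-OHT spheroids. Adding the A-485 libraries to the first organoid set gave 3079 genes and 0 members. With no filter, genes called were 60 (flox/+ against CreER-only), 123 (spheroid interaction) and 1221 (Rosa26 interaction), members 0 in flox/flox spheroids and between 4-OHT spheroids, and crypts against villi gave Jarid2 0.044 (Rosa26) and Tet3 0.021 (Vil1). DESeq2 called 145 genes in flox/+ against CreER-only, 2 between DMSO spheroids, 572 in the spheroid interaction, and 2891 genes with 4 members in the Rosa26 interaction.

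Library totals gave 3 members in flox/flox spheroids, 2 in Vil1 crypts, 0 in Vil1 villi and 2 in the Vil1 interaction. In Rosa26 crypts against villi they gave Ezh1 0.19, Jarid2 0.91, Tet2 0.53 and Tet3 0.80, with Vil1 Ezh1 0.027, Tet2 0.071 and Tet3 0.60, and in the Vil1 interaction Eed 0.079 and Dnmt3b 0.023. They moved the percentage of called genes that were higher from 42.7 to 28 in Rosa26 crypts, 39.6 to 20.2 in Vil1 crypts, 49.1 to 62.7 in Vil1 villi, 56.2 to 74.3 with A-485 at 3 µM, 52.7 to 79.5 and 51.9 to 74.4 in crypts against villi, and 60.4 to 82.3 in the Vil1 interaction. They moved the median of all genes from 0.01 to -0.13 in Vil1 crypts, 0.05 to 0.22 in Vil1 villi, 0.11 to 0.40 in the Vil1 interaction, and -0.01 to -0.13 between spheroids and organoids.

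The Y-linked covariate gave 2 members and Eed at -0.053 in Rosa26 crypts and 2967 genes in villi. All 4 tissue groups together gave 1 member in Rosa26 and 2 in Vil1 crypts. Without the 6 spheroid libraries that stood apart, 2 members were called in flox/flox spheroids, 949 genes between 4-OHT spheroids and 14 in the spheroid interaction, where Dnmt3a was at 0.079. Dnmt1 between 4-OHT spheroids was then at 0.30.

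Leaving out each library gave members called from 0 to 3 (first organoid set), 0 to 1 (A-485 at 3 µM), 2 to 6 (5 µM), 3 to 7 (10 µM), 0 to 2 (flox/flox spheroids), 0 to 1 (4-OHT spheroids), 0 to 2 (Rosa26 crypts) and 0 to 1 (Vil1 interaction). Genes called ran from 1 to 32 (flox/+ against CreER-only), 131 to 362 (spheroid interaction), 1937 to 4732 (Rosa26 crypts), 1079 to 3068 (Rosa26 interaction), 3223 to 5978 (Vil1 crypts) and 1456 to 3425 (Vil1 interaction). Log2 values changed sign for Tet2 in flox/flox spheroids (-0.053 to 0.87), between DMSO spheroids (-0.34 to 0.52) and in their interaction (-0.10 to 0.82), Dnmt1 between 4-OHT spheroids (-0.42 to 0.18), and crypts against villi for Jarid2 (Rosa26, -0.10 to 0.053) and Tet3 (Vil1, -0.088 to 0.030). Depth limits Dnmt3b most, with 3 to 27 reads per library in Rosa26 villi.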

Other observations

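Tet1, the TET gene outside the 10, was below 6 CPM on average in all 21 groups, from 0.23 in homozygous Rosa26 villi to 5.59 with A-485 at 3 µM. Hells, a remodeller needed for normal DNA methylation, averaged 3.74 CPM in homozygous and 1.45 in heterozygous Rosa26 villi (log2 1.29 ± 0.38, edgeR adjusted p = 0.0214), and 18.2 and 5.66 in Vil1 villi (1.64 ± 0.29, 0.000725). Its genotype difference, villi minus crypts, was 1.53 ± 0.42 in Rosa26 (edgeR adjusted p = 0.0268) and 1.51 ± 0.37 in Vil1 mice (0.0137). In homozygous Vil1 mice Tet1 was lower by -0.71 ± 0.21 in crypts (edgeR adjusted p = 0.0362) and by -1.55 ± 0.42 in villi (0.00929). The methyl-CpG reader gene Zbtb4 was higher in homozygous libraries in all 4 tissue comparisons, by log2 0.53 to 0.87. Another reader gene, Zbtb38, was lower in homozygous crypts, by -0.95 ± 0.12 with Rosa26 (edgeR adjusted p = 0.00111) and -0.62 ± 0.10 with Vil1 (0.00294).

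Cell type markers moved beside the members. Paneth markers were lower with 8 of 8 called in homozygous Rosa26 crypts, Vil1 crypts and second-set flox/flox organoids against flox/+, and with 8 of 8 at 5 and 10 µM A-485. Enteroendocrine markers were lower with 7 of 7 called in the same 2 crypt comparisons and in both organoid sets, and tuft markers with 5 of 5. Of 10 enterocyte markers, 5 were lower in homozygous Vil1 crypts and 10 at 10 µM A-485, and of 7 goblet markers 4 and 7. Stromal markers gave 1 higher call in each homozygous crypt comparison and pan-epithelial markers gave 0 and 1 higher and 1 and 1 lower. Opponents of Polycomb gave 3 higher and 1 lower of 5 in crypts against villi with both drivers, and methyl-CpG readers 5 higher and 1 lower of 8 with Rosa26 and 6 and 0 with Vil1. These shares are near the 77.1% and 67.9% of all genes called there.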
